A study of Rattus norvegicus with 5 samples.

Results

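The 10 genes described here form the receptor and signalling core of the interleukin 6 pathway: the cytokine Il6, the receptor chains Il6r, Il6st, Osmr and Lifr, the kinases Jak1 and Jak2, the transcription factor Stat3, and the inhibitors Socs1 and Socs3. They were chosen by name, and each was read from the array probe whose accession maps to that rat gene. All 10 were found among the 15167 named genes, each with 1 probe. The array probes of Il6 and Il6r were printed as 10 spots and the other 8 as 1 spot.

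Interleukin 6 binds its receptor Il6r, and the complex then pairs 2 chains of Il6st, the shared signalling subunit also known as gp130. Receptor-bound Janus kinases phosphorylate STAT3, which enters the nucleus and switches on its target genes. Oncostatin M and leukaemia inhibitory factor signal through the same Il6st chain joined to Osmr or Lifr. Socs3 and Socs1 are feedback inhibitors that STAT factors induce: Socs3 binds Il6st and the kinases, and Socs1 acts on the kinases. In liver the pathway is known for the acute phase response and for priming hepatocytes after partial hepatectomy. The arrays measured mRNA, and the phosphorylation of STAT3 was not measured.

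The study concerned Tmub1, a membrane protein that carries a ubiquitin-like domain, and its part in transcription in BRL-3A, a line from Buffalo rat liver. It has 5 groups of 1 array each: cells with a Tmub1 overexpression lentivirus, cells with the negative control of that virus, cells with a Tmub1 knockdown lentivirus, cells with the negative control of the knockdown virus, and normal cells without virus. All were grown with 10% serum, and RNA of the transduced cells was taken 48 h after transduction. With no replicate array in any group no p-value is given, and the intervals cover the reading of the spots alone.

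The arrays gave 42877 non-control spots each, with 0 saturated, and a median processed signal of 116.4 to 356.2. Normal cells were scanned on a different day from the 4 transduced arrays, so scan and virus cannot be told apart against normal cells. The hepatocyte enzyme Cps1 was not well above background on any array, and albumin (Alb) was not on 3 of 5. Hnf4a, Tf and Serpina1 of the same list were well above background on all 5. Tf had log2 levels of -0.56 to 0.52 on the transduced arrays, against -3.76 in normal cells, while Hnf4a and Serpina1 were highest in normal cells. The labels call the line normal hepatocytes. Between arrays, the summed signal of 8 hepatocyte markers ran from 0.815 to 1.84 times the array's 75th percentile. The 7 measured macrophage and leukocyte markers summed to 6.98 to 9.69 on the 4 transduced arrays, against 1.92 in normal cells. Ptprc and Lyz2 were well above background on the 4 transduced arrays and not in normal cells, and Itgam was so on the knockdown array alone. Csf1r and Clec4f went the other way, with log2 levels of -1.57 to -0.80 and -3.36 to -3.27 on the transduced arrays, against -0.14 and -1.97 in normal cells. The 10 stellate cell and fibroblast markers summed to 240 to 553 on the transduced arrays and 341 in normal cells. The 5 measured endothelial markers summed to 1.68 to 4.39 and 3.62. Dcn had log2 levels of 1.14 to 1.83 on the transduced arrays, against -4.26 in normal cells. Pdgfra and the endothelial marker Pecam1 were well above background on the transduced arrays alone. Col1a2 was highest in normal cells, at 5.81. The part of these cell markers in the results below was not tested.

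The promoters of the 3 members that lay past 2.5-fold between the knockdown virus and its negative control are shown. Socs1 is also a known target of STAT and interferon signalling. Its knockdown level lay within 2.5-fold of the overexpression negative control and of normal cells. RefSeq held promoter windows for 9 of the 10 genes on build GRCr8, from 250 bases before to 50 after the start site. Capitals mark matches on either strand to the STAT element TTCNNNGAA or the interferon-stimulated response element, searched as TTTC and TTTC with any 2 bases between them (GAAA and GAAA on the other strand). The 3 windows lie at chr10:5389324-5389623 on the plus strand (Socs1), chr10:86363310-86363609 on the minus strand (Stat3) and chr2:57688512-57688811 on the minus strand (Osmr).
Socs1: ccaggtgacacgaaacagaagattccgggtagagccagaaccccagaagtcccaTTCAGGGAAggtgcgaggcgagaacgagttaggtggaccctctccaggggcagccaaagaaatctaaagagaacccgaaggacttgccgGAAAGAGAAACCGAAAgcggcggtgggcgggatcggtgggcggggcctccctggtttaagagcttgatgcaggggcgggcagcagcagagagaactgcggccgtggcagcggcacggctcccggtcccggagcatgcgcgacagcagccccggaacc
Stat3: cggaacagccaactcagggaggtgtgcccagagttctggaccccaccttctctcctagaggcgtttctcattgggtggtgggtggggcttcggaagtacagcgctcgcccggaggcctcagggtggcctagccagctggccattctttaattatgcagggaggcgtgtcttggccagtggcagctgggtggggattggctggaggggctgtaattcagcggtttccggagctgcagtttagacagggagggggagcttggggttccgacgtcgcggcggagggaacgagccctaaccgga
Osmr: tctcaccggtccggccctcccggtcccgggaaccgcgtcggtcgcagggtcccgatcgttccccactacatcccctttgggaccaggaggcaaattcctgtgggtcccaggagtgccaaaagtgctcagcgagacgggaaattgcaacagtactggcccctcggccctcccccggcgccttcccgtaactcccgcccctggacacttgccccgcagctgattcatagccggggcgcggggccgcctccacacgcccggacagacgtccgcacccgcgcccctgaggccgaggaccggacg
The Socs1 window holds the STAT match TTCAGGGAA, whose first base lies 196 bases upstream of the start, and the overlapping interferon element matches GAAAGAGAAA and GAAACCGAAA at 107 and 101 bases upstream. The Stat3 and Osmr windows hold neither. The STAT motif occurs in 1 of the 9 members' windows and in 8.68% of 27457 rat promoter windows of the same length. The interferon element occurs in 2 of 9, Socs1 and Il6st, and in 3.77% of all. The table's Il6st window appears to hold the start of the coding sequence, so whether it is that gene's promoter is in doubt. A match describes letters in these windows and not a bound site.

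Levels are given as the processed signal, which is not scaled between arrays, and as log2 of that signal minus the log2 of the array's 75th percentile. The 75th percentile was 665 with overexpression, 555 in its negative control, 1417 with knockdown, 687 in its negative control and 1341 in normal cells. Tmub1 itself had log2 levels of 0.44 with overexpression and 0.37 in its negative control, so no higher Tmub1 signal was measured with the overexpression virus. Whether its 1 probe detects the transcript carried by that virus is not known here. Its level was -1.42 in the knockdown array against 0.45 in the negative control of that virus, 3.65-fold lower (log2 difference -1.87, 95% interval of the scanner error -2.27 to -1.47). Normal cells had 0.08.

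All 10 members were well above background on all 5 arrays. A probe's brightness depends on the probe, so levels are compared between arrays and not between genes. The plot of levels by array shows each member on a scale of equal height.

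**Figure D1:**
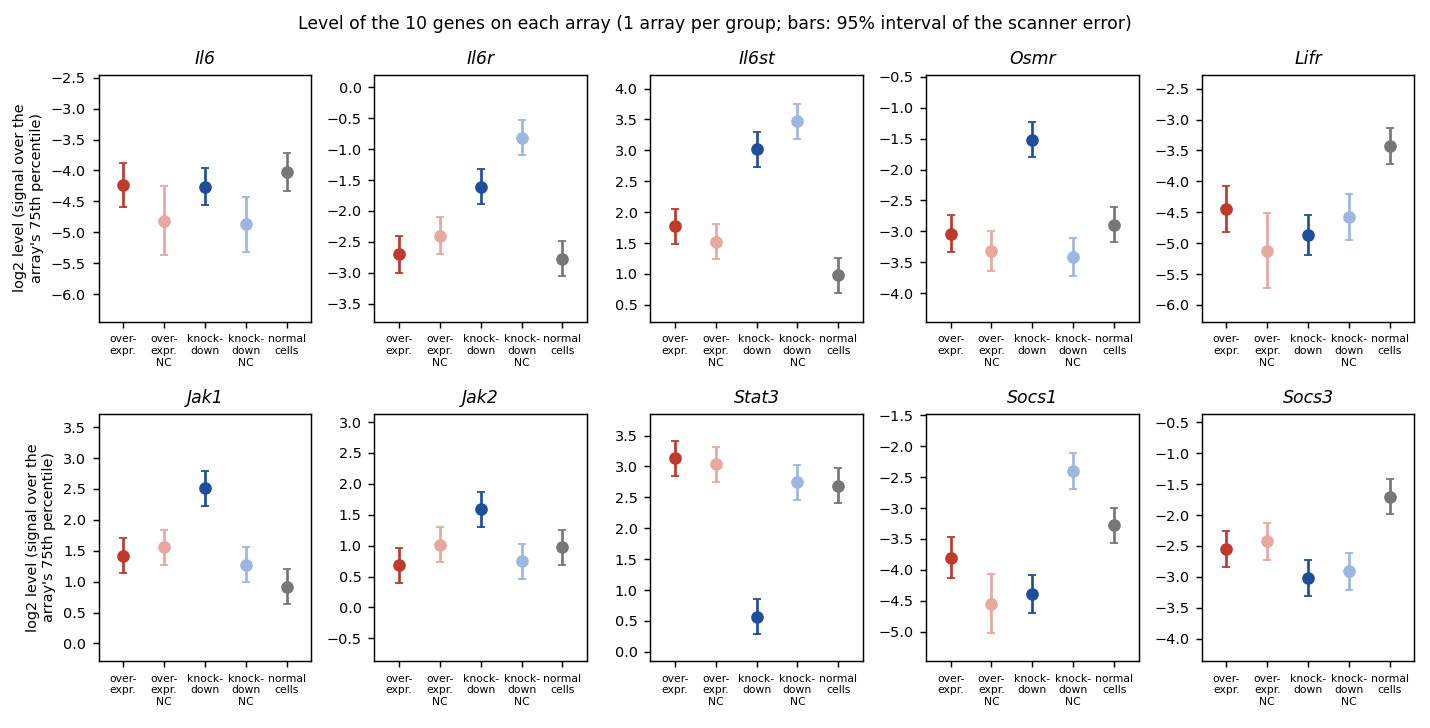
Level of each of the 10 genes (log2 signal over the array's 75th percentile, vertical axis) on the 5 arrays, 1 array per group; NC is the negative control virus and bars are the 95% interval of the scanner error. Stat3 stands at 0.57 on the knockdown array and at 2.69 to 3.14 on the other 4, and Osmr at -1.52 on the knockdown array and at -3.41 to -2.89 on the other 4.

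With the knockdown virus, Stat3 mRNA was 4.53-fold lower and Socs1 mRNA 3.96-fold lower than in the negative control of that virus, and Osmr mRNA was 3.71-fold higher. In a culture, fewer cells of a type and less RNA per cell cannot be told apart. The other 7 members lay within 2.5-fold, the fold that the series' design text names. So 3 of 10 members passed that fold, against 18.5% of the 12786 genes that could be called. By direction 1 of 10 was higher, against 8.44%, and 2 were lower, against 10.0%. The median log2 difference of the members was -0.20, against -0.16 over all genes, and the median absolute difference was 0.82, against 0.66.

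With the overexpression virus, 0 of the 10 members passed 2.5-fold against the negative control of that virus, where 3.12% of 11852 genes did. The log2 differences ran between -0.33 for Jak2 and 0.74 for Socs1, with a median of 0.18 against 0.01 over all genes. Socs1 was the only member whose scanner interval left out 0 here, at 0.16 to 1.32, with signals of 47.6 with overexpression and 23.8 in its negative control. After normexp its difference was -0.0028.

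**Figure D2:**
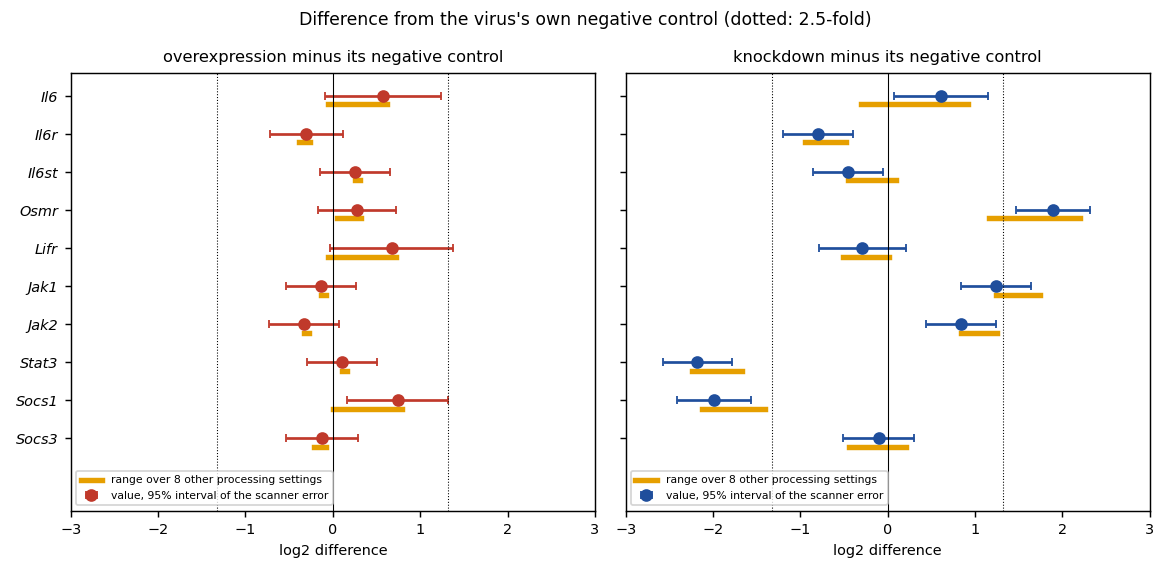
Log2 difference of each gene between the overexpression virus and its negative control (left) and between the knockdown virus and its negative control (right); points are values, thin bars the 95% interval of the scanner error, thick bars the range over 8 other processing settings, dotted lines 2.5-fold. All 10 values on the left lie within 2.5-fold, and Osmr at 1.89, Stat3 at -2.18 and Socs1 at -1.99 lie past it on the right.

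Il6, the cytokine of the pathway, was read from weak signals close to background. The mean signal of its 10 spots, taken on the log scale, was 35.3 with overexpression (9 spots kept) and 19.8 in its negative control. It was 73.9 with knockdown, 23.5 in its negative control and 82.3 in normal cells. The log2 levels were -4.24 with overexpression, -4.81 in its negative control, -4.26 with knockdown, -4.87 in its negative control and -4.03 in normal cells. Both negative controls thus lay below the other 3 arrays, and 6 of 10 spots were well above background in the overexpression negative control and 9 of 10 in the knockdown negative control. The spots of the 1 probe had a log2 SD of 0.15 to 0.56 within an array.

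The log2 difference of Il6 was 0.58 (-0.09 to 1.24) with overexpression and 0.61 (0.07 to 1.15) with knockdown, each against its own negative control. Against normal cells the same 2 values were -0.21 and -0.23. No pair of neighbours in the order of the 5 levels differed beyond the scanner interval. That interval uses the mean error of a single spot and was not narrowed for the number of Il6 spots. Normexp background correction placed both differences from the negative controls below 0, at -0.05 with overexpression and -0.31 with knockdown.

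Il6r, the chain that binds interleukin 6, was read more tightly. Its signal was 102 with overexpression, 105 in its negative control, 465 with knockdown, 391 in its negative control and 196 in normal cells. The spots spread by a log2 SD of 0.06 to 0.12, and the unscaled spot signals of the knockdown virus pair did not overlap those of the other 3 arrays. The spots are copies of 1 probe, so this separation does not hold the spread between cultures.

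**Figure D3:**
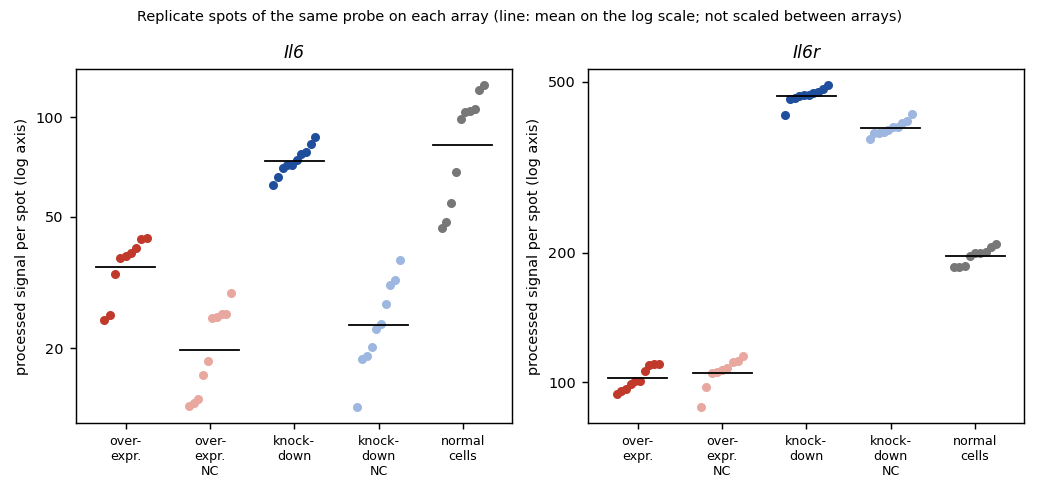
Processed signal of every kept spot of the Il6 and Il6r probes (log axis, not scaled between arrays) on the 5 arrays; points are spots of 1 probe and lines their mean on the log scale. The Il6r spots reach 368 or more on both arrays of the knockdown virus pair and 210 or less on the other 3, while the Il6 spots range widely within an array.

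On the scaled log2 level, Il6r stood at -2.70 with overexpression, -2.40 in its negative control, -1.61 with knockdown, -0.82 in its negative control and -2.77 in normal cells. It was 1.73-fold lower with knockdown than in its own negative control (-0.79, -1.19 to -0.39), yet 1.73-fold higher than in the overexpression negative control. The level thus depended on which control array it was set against. Between the 2 negative controls the overexpression one was lower by 1.59 on the log2 scale.

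Il6st, the signalling chain shared by most of the cytokine family, also had its highest levels on the knockdown virus pair. Its signal was 2270.2 with overexpression, 1590.2 in its negative control, 11446 with knockdown, 7632 in its negative control and 2646 in normal cells. The log2 levels were 1.77 with overexpression, 1.52 in its negative control, 3.01 with knockdown, 3.47 in its negative control and 0.98 in normal cells. Both arrays of the knockdown virus pair thus lay above the other 3.

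The log2 difference of Il6st with knockdown was -0.46 (-0.86 to -0.06) against its own negative control, while the knockdown array was 2.82-fold above the overexpression negative control and 4.09-fold above normal cells. Its sign against its own control was not stable, since other scalings gave up to 0.10. Il6r and Il6st were the members that were higher on both arrays of the knockdown virus pair than on the other 3, by at least 0.79 and 1.24 on the log2 scale. Among genes above background on all 5 arrays, 13.2% had that pattern.

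Osmr, the receptor chain for oncostatin M, was high on 1 array. Its signal was 80.9 with overexpression, 55.6 in its negative control, 495 with knockdown, 64.7 in its negative control and 181 in normal cells. On the log2 scale these were -3.04 with overexpression, -3.32 in its negative control, -1.52 with knockdown, -3.41 in its negative control and -2.89 in normal cells. The knockdown array was above each of the others, and the other 4 did not differ from their neighbours in order beyond the scanner interval.

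The Osmr difference with knockdown was 1.89 (1.47 to 2.31) against its own negative control, 1.80 against the overexpression negative control and 1.37 against normal cells. The 3 control arrays spanned 1.43-fold. After normexp background correction the first value was 1.16, below 2.5-fold. The ligand Osm, oncostatin M, had a difference of -1.26 between the knockdown array and its own negative control.

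Lifr, the chain for leukaemia inhibitory factor, was read from weak signals. Its signal was 30.5 with overexpression, 15.97 in its negative control, 48.4 with knockdown, 28.8 in its negative control and 125 in normal cells. The log2 levels were -4.45 with overexpression, -5.12 in its negative control, -4.87 with knockdown, -4.58 in its negative control and -3.42 in normal cells. Normal cells were highest, and the 4 transduced arrays did not differ from their neighbours in order beyond the scanner interval.

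Jak1, a kinase bound to Il6st, had signals of 1775 with overexpression, 1631 in its negative control, 8081 with knockdown, 1662 in its negative control and 2535 in normal cells. Its log2 level was 1.42 with overexpression, 1.55 in its negative control, 2.51 with knockdown, 1.27 in its negative control and 0.92 in normal cells. The knockdown array was the highest, 2.36-fold above its own negative control (1.24, 0.84 to 1.64), just under the 2.5-fold line. Quantile normalization, cyclic loess, a percentile over probes above background on all arrays and the authors' deposited table placed it past that line, at 1.55 to 1.74.

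Jak2, the second kinase of the receptor, had signals of 1066 with overexpression, 1121 in its negative control, 4258 with knockdown, 1156 in its negative control and 2633 in normal cells. Its log2 level was 0.68 with overexpression, 1.01 in its negative control, 1.59 with knockdown, 0.75 in its negative control and 0.97 in normal cells. The knockdown array was again highest, 1.79-fold above its own negative control (0.84, 0.44 to 1.24), while the 3 control arrays spanned 1.20-fold. Of the 10 members Jak2 had the narrowest span over the controls.

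Stat3, the transcription factor of the pathway, had signals of 5849.8 with overexpression, 4553.6 in its negative control, 2099.9 with knockdown, 4610.4 in its negative control and 8639.6 in normal cells. Its log2 level was 3.14 with overexpression, 3.04 in its negative control, 0.57 with knockdown, 2.75 in its negative control and 2.69 in normal cells. The knockdown array stood apart at the low end, and no other neighbours in the order differed beyond the scanner interval. The signal on that array was the lowest even before scaling, although the array as a whole was the brightest of the 5.

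The Stat3 difference with knockdown was -2.18 (-2.58 to -1.78) against its own negative control, -2.47 against the overexpression negative control and -2.12 against normal cells. It passed 2.5-fold under all 8 other processing settings, with values from -2.25 to -1.66. The filter and probe-averaging settings among them could not change it, since Stat3 has 1 probe, above background on every array. Stat3 lay in the brightest of 4 equal bins of genes, whose median difference with knockdown was -0.62, against 0 in the dimmest. Il6st, Jak1 and Jak2 lay in the brightest bin too, with differences of -0.46, 1.24 and 0.84.

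Socs1, an inhibitor of the kinases, had signals of 47.6 with overexpression, 23.8 in its negative control, 67.6 with knockdown, 129.9 in its negative control and 138 in normal cells. The log2 levels were -3.81 with overexpression, -4.55 in its negative control, -4.39 with knockdown, -2.40 in its negative control and -3.28 in normal cells. The knockdown negative control was thus the highest of the 5 arrays, and the 2 negative controls were at opposite ends. They differed by 4.42-fold, more than the 3.96-fold between the knockdown array and its own negative control.

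The Socs1 difference with knockdown was -1.99 (-2.41 to -1.57) against its own negative control, 0.16 (-0.41 to 0.72) against the overexpression negative control and -1.11 against normal cells. The call therefore held against 1 of the 3 control arrays. The interferon-activated factor Stat2, described with the pathway lists below, had -1.37 between the knockdown array and its own negative control. Against the overexpression negative control Stat2 had -1.62, where Socs1 had 0.16. A link between the 2 genes was not tested.

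Socs3, the feedback inhibitor that binds Il6st, had signals of 114 with overexpression, 103 in its negative control, 175 with knockdown, 91.3 in its negative control and 411 in normal cells. Its log2 level was -2.55 with overexpression, -2.43 in its negative control, -3.02 with knockdown, -2.91 in its negative control and -1.71 in normal cells. Normal cells were highest, by 0.72 over the next array. Both arrays of the knockdown virus pair lay below the other 3, by at least 0.36, a pattern that 16.7% of genes had. The scanner interval of that 0.36 was -0.05 to 0.77 and held 0. The difference was -0.10 (-0.52 to 0.31) with knockdown and -0.12 (-0.53 to 0.29) with overexpression, each against its own negative control. A change of 2.5-fold lies outside both intervals, which do not hold the spread between cultures.

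Set against the range of the 3 control arrays, the knockdown array was outside for 5 of 10 members, namely Osmr, Jak1, Jak2, Stat3 and Socs3, while 69.5% of all 10684 genes above background on every array were outside. It was at least 2.5-fold outside for 2 of 10, Stat3 and Osmr, against 7.56% of all genes. For Socs3 it was outside by -0.10, less than the scanner interval. The overexpression array was outside for Jak2 and Stat3, by -0.07 and 0.10, against 29.4% of all genes, and 0 members were 2.5-fold outside, against 0.178%.

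The number of members past 2.5-fold varied with the array they were set against. For the knockdown array it was 3 of 10 against the overexpression negative control (Il6st, Osmr and Stat3), where 29.2% of genes passed, and 5 of 10 against normal cells (Il6st, Osmr, Lifr, Jak1 and Stat3), where 30.7% passed. For the overexpression array it was 3 of 10 against the knockdown negative control (Il6r, Il6st and Socs1, all lower), against 4.23% of genes, and 0 against normal cells, against 17.6%.

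**Figure D4:**
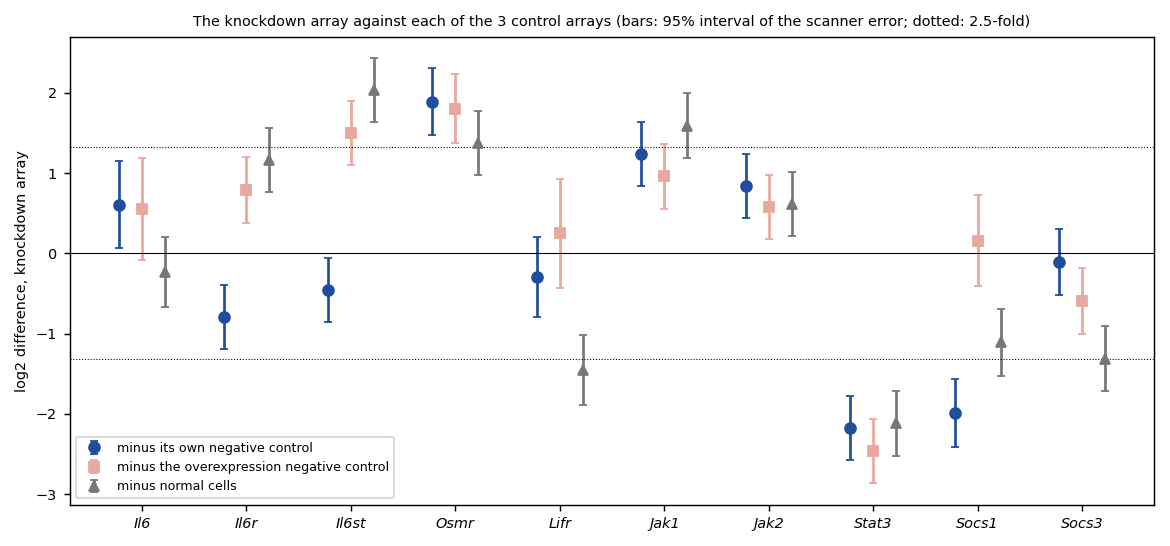
Log2 difference of the knockdown array from its own negative control, from the overexpression negative control and from normal cells for each of the 10 genes; bars are the 95% interval of the scanner error and dotted lines 2.5-fold. Stat3 lies between -2.47 and -2.12 and Osmr between 1.37 and 1.89 against all 3 arrays, while Il6, Il6r, Il6st, Lifr and Socs1 change sign with the array they are set against.

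The control arrays differed among themselves in several members. The span over the 3 arrays was 1.20-fold for Jak2, 1.27-fold for Stat3 and 1.43-fold for Osmr, and it reached 3.88-fold for Il6r, 4.42-fold for Socs1 and 5.63-fold for Il6st. The median span of the members was 2.03-fold, against 1.91-fold over all genes. Between the overexpression negative control and the knockdown negative control, 3 members passed 2.5-fold, Il6r, Il6st and Socs1, all lower in the first, against 8.89% of all genes. Set against normal cells, Lifr was 3.24-fold lower in the overexpression negative control, where 18.8% of genes passed. Il6r and Il6st were 3.88-fold and 5.63-fold higher in the knockdown negative control, where 16.7% passed.

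Beyond the members, 96 genes of the pathway in 7 lists were read, of which 86 were on the array under the names used. With knockdown 20 of the 83 that could be called passed 2.5-fold, 9 higher and 11 lower, a share of 24.1% against 18.5% of all genes. The split by direction moved with the scaling: 13 higher and 9 lower after quantile normalization, 12 and 4 after cyclic loess, 14 and 4 with the percentile over probes above background on all arrays, and 13 and 7 in the authors' deposited table. The values below are against the knockdown virus's own negative control.

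Among the other JAK and STAT genes, Stat2, a factor of the type I interferon response, was lower by 1.37 and Jak3, a kinase of lymphocyte cytokine receptors, by 1.54 on the log2 scale. Stat5a had -1.21, Stat5b 0.79 and Stat6 0.62, all within 2.5-fold. Among the other receptor chains, Il10rb, which serves interleukin 10 and related cytokines, had -1.45, and the rest of the 7 measured did not pass 2.5-fold.

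Of the 12 adaptors and kinases of the ERK and PI3K branches, 3 were higher and 1 lower. Ptpn11, the phosphatase SHP2 that links Il6st to ERK, had a difference of 1.89, the docking protein Gab1 1.75 and the insulin receptor substrate Irs1 1.60. Against the overexpression negative control and normal cells Ptpn11 had 0.90 and 0.73, within 2.5-fold, while Gab1 and Irs1 passed it against both. The dimmer Irs1 probe had 0.92, within 2.5-fold. Sos1, an activator of Ras, had -1.54 on its brighter probe and 0.86 on the other, so its probes pointed in opposite directions.

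Of the 13 other inhibitors and receptor sheddases, 3 were higher and 2 lower. Adam17, the protease that sheds Il6r from the cell surface, was 3.71-fold higher, with log2 levels of 0.91 with knockdown, against -0.98 in its negative control. Pias1 and Pias2, SUMO ligases that bind STAT factors, had differences of 1.83 and 1.86. Pias3, the family member known to inhibit STAT3, had -1.51 and Socs5 had -1.86.

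Of 20 acute phase genes, 1 was higher and 2 were lower. The complement protein C3 had 1.81, the pentraxin Apcs -1.46 and A2m, a major acute phase protein and STAT3 target in the rat, -1.87. Fga, a fibrinogen chain, was not well above background on any of the 4 transduced arrays. Of 20 transcription factor and growth targets, Egr1 had 2.36, the adhesion molecule Icam1 1.61 and Junb, an AP-1 subunit, -1.66. Against normal cells the knockdown array had -0.20 for C3 and 0.42 for Junb, so their sign changed with the control array. A2m, Apcs, Egr1 and Icam1 kept their sign against every control array.

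Of the 73 list genes above background on all 5 arrays, the knockdown array was at least 2.5-fold outside the 3 control arrays for 10, a share of 13.7% against 7.56% of all genes. Those higher were Gab1, Irs1 (on its brighter probe), Pias2, Adam17, Egr1 and Icam1, by 1.34 to 2.36 on the log2 scale. Those lower included Jak3, Pias3 and A2m, at -1.87 to -1.39. Stat2 was not among them, with a log2 level of 0.61 with knockdown, against 0.68 in normal cells.

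With overexpression 3 of 78 list genes passed 2.5-fold against its own negative control, 3.85% against 3.12% of all genes. A2m was 9.13-fold lower, with log2 levels of 0.33 with overexpression and 3.52 in its negative control; its second probe gave -3.33. Serpina3n, a serine protease inhibitor of the acute phase, was 3.17-fold lower, and Hif1a, a transcription factor of the hypoxia response, 2.93-fold higher. None of the 3 lay 2.5-fold outside the range of the control arrays: A2m stood at 0.85 in the knockdown negative control, Serpina3n at -1.99 in normal cells and Hif1a at 1.70 in the knockdown negative control.

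**Figure D5:**
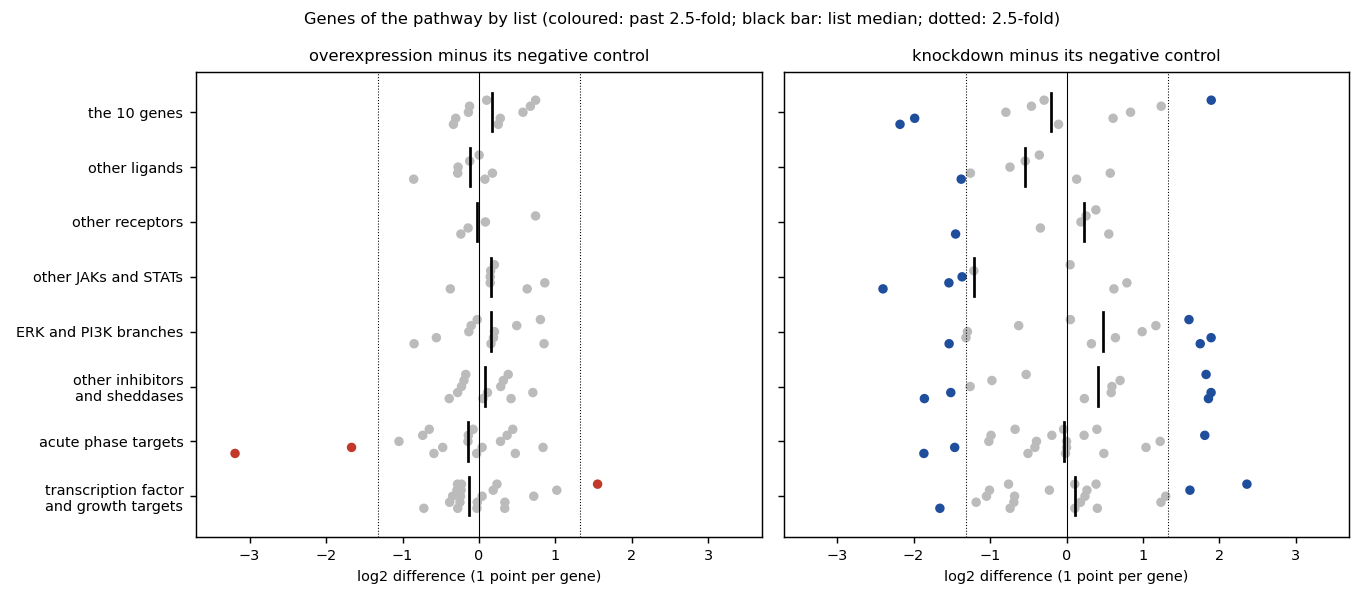
Log2 difference of each pathway gene that could be called, by list, between the overexpression virus and its negative control (left) and between the knockdown virus and its negative control (right); points are genes, coloured where past 2.5-fold, black bars are list medians and dotted lines mark 2.5-fold. On the left 3 list genes are coloured, and on the right 20 list genes and 3 of the 10 members are.

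Among 10663 other genes above background on all 5 arrays, those whose 5 centred levels were most like those of Stat3 were Slc25a22, a mitochondrial glutamate carrier, Pex26, a peroxisome assembly factor, and Gtf3c5, a subunit of transcription factor IIIC. Their root mean square difference from Stat3 was 0.11 on the log2 scale for each. The nearest to Osmr were Fam118a, Noc2l and Homer3, at 0.10, 0.10 and 0.11. The nearest to Il6 were Ccrl2, an atypical chemokine receptor, Eml1 and Azin2, at 0.07 to 0.08. These likenesses rest on 5 arrays and are a description.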

How the data were processed

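Gene expression was measured on 1 one-colour Agilent array for each of 5 groups, named from the labels. The deposited scanner files give a processed signal intensity per spot; per the file headers it was read with Agilent Feature Extraction 11.0.1.1, already background-subtracted and spatially detrended, while the submitters' processing notes name version 9.1. The authors' deposited table holds log2 values with equal quartiles in every column; the software for that step is not given in the sources. With 1 array per group, the number of arrays limits precision.

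The log2 signal of kept spots (control, outlier and manually flagged spots left out) was averaged per probe, and the array's 75th percentile was subtracted. Of 30366 probes, 18004 were named from their accession in the RefSeq table of build GRCr8, giving 15167 genes; 12362 stayed unnamed. A gene with several probes was represented by the probe of highest mean. A probe counted as well above background where at least 50% of its spots did. A gene could be called where its brighter value was above background, and was called at 2.5-fold, with a dim value below background raised to the array's lowest value above it. Intervals are 95% intervals (1.96 times the scanner software's error). For a probe with several spots the error was the mean over its spots, not narrowed for their number. The array was designed on an older build, so probe positions are not given.

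The members and lists were chosen with earlier results of these data known. Named genes were the 10 members, Tmub1, up to 4 list genes per direction past 2.5-fold, and the 3 genes nearest in profile to Stat3, Il6 and Osmr. Alternatives were quantile normalization, cyclic loess, another percentile, normexp (limma 3.58.1), the authors' table, filters, probe averaging, fold thresholds of 2 and 4, and the other arrays as reference. Since mean pixel signals were absent from the columns used, normexp took the median. The calling was tested on simulated data made from the knockdown negative control array with planted differences and added noise (Python 3.11.15, R 4.3.3). This checked the code and does not give the rate of false calls in these data. No p-value was computed. Some list genes are not reported here.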

Additional observations from a re-analysis of the deposited data

Results flagged for a closer look

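Socs1 differed between the 2 negative control viruses when each was set against normal cells: it was lower by 1.27 on the log2 scale in the overexpression negative control and higher by 0.88 in the knockdown negative control, a difference of -2.14. It was noted because the 2 control viruses lay on opposite sides of normal cells. The difference was not tested, since each group has 1 array, and both values share the array of normal cells.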

How the results depend on the processing

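The differences of the 10 members in 5 comparisons gave 50 values, each recomputed under 8 other settings. The filter and probe-averaging settings could not move these values, since each member has 1 probe, above background on every array. Only the other scalings, normexp and the authors' table could move them. Of the 9 past 2.5-fold, 0 changed sign and 5 stayed past it in all 8, and 50 of the 400 recomputed values moved beyond the scanner interval. No paired analysis was possible because each group has 1 array, so the groups share 1 replicate number, and no array could be left out for the same reason.

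With knockdown the count of members past 2.5-fold was 3. It was 2 after normexp, where Osmr dropped out at 1.16, 1 at a 4-fold threshold and 5 against normal cells. Over all genes 18.5% passed, and at these 3 settings 11.1%, 5.35% and 30.7%. With overexpression the member count was 0, where 3.12% of all genes passed. It was 3 against the other negative control (Il6r, Il6st and Socs1, all lower), where 4.23% passed. Between the 2 negative controls the member count was 3. It was 1 after normexp (Il6st, with Il6r and Socs1 at -1.10 and -0.72) and 1 at 4-fold (Socs1). Over all genes 8.89% passed, 3.23% after normexp and 2.42% at 4-fold. Lifr was the 1 member past 2.5-fold between the overexpression negative control and normal cells. It had -0.95 to -0.45 after quantile normalization, cyclic loess, normexp and in the authors' table. The member count was 0 in these and at 4-fold, where 5.90% to 12.2% of all genes passed, against 18.8% in the main setting. It was 2 with the percentile over probes above background on all arrays and at 2-fold, where 22.8% and 32.5% passed. For the knockdown negative control against normal cells the count of 2 became 4 with that percentile and at 2-fold, and 1 at 4-fold. Over all genes 16.7% passed, 19.4% with that percentile and 27.7% at 2-fold.

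For the pathway lists, the 3 genes past 2.5-fold with overexpression became 5 without a filter and at 2-fold, and 1 at 4-fold. They became 21 against normal cells and 0 outside the range of the control arrays. Over all genes the shares were 4.95% without a filter, 6.60% at 2-fold and 0.734% at 4-fold. Against normal cells the share was 17.6%, and outside that range 0.178%. The 20 with knockdown became 34 at 2-fold, 2 at 4-fold and 35 against normal cells. They became 10 outside that range, a setting chosen after seeing the data. Over all genes these settings gave 31.5%, 5.35%, 30.7% and 7.56%. At 4-fold the 2 of 83 list genes were thus a smaller share than that over all genes. After normexp 7 were higher and 10 lower. Over all genes, normexp lowered the share called to 0.65% with overexpression and 11.1% with knockdown. The median of all genes with knockdown was -0.16, and 0.08 with the percentile over probes above background on all arrays, -0.01 after cyclic loess and -0.34 after normexp, so small differences have no settled sign. Il6, Lifr and Socs1 have weak signals, and their differences with overexpression after normexp were -0.05, -0.06 and -0.0028. The cause was not tested.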
